A study of Mus musculus with 6 samples.

Results

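*Gpnmb* and 9 genes that mark lipid-laden macrophages were followed in mouse kidneys after ischemia-reperfusion injury (IRI). The 10 genes are *Gpnmb*, *Trem2*, *Lgals3*, *Spp1*, *Cd9*, *Fabp5*, *Lpl*, *Mitf*, *Ctsk* and *Cd63*. They were taken by symbol from a table of 21367 genes, each had 1 entry there, and all 10 passed the filter on low counts that left 13036 genes for testing. The list was chosen by the counts and FPKM of *Gpnmb* in these libraries, which differed between the genotypes, and filled with genes known from the same macrophage program, so the genotype difference of *Gpnmb* is given below as a description, without a test. The libraries represent 3 mice with the *Ptpn6*+/mev genotype and 3 wild-type littermates, all on a C57BL/6 background and 7 weeks old. *Ptpn6*+/mev mice are heterozygous for the viable motheaten (mev) allele, a splice-site mutation in *Ptpn6*, which encodes the tyrosine phosphatase SHP-1, and the labels call this genotype an SHP1 knockdown. The mutation is in the germline, so every cell type of these mice carries it. In both groups the right kidney was removed, the vessels of the remaining kidney were closed for 34 min, and that kidney was collected after 24 h. Each mouse gave 1 library. No kidney without IRI was analysed here.

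GPNMB is a transmembrane glycoprotein of endolysosomes, the compartments that break down engulfed material, and its ectodomain can be shed from the cell. Macrophages that take up much lipid switch on a shared set of genes for lipid sensing, lipid handling and lysosomal degradation, and transcription factors of the MiT/TFE family, of which MITF is a member, drive many lysosomal genes and *Gpnmb* itself. In the kidney several of these genes are also expressed outside macrophages: injured tubular epithelium is a known source of osteopontin, the product of *Spp1*, and of galectin-3, the product of *Lgals3*.

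The promoter of *Gpnmb* is shown first, with that of *Lgals3*, whose FPKM also did not overlap between the genotypes, and that of *Cd9*, which held one of the motifs searched. The windows were taken from RefSeq (GRCm38.p6). Each runs 5′ to 3′ on the strand of the gene, from 250 bases before the transcription start to 50 bases from the start on. They lie at chr6:49036268-49036567 on the plus strand, chr14:47373610-47373909 on the plus strand and chr6:125494711-125495010 on the minus strand, in this order. Capitals mark the motifs found.
Gpnmb: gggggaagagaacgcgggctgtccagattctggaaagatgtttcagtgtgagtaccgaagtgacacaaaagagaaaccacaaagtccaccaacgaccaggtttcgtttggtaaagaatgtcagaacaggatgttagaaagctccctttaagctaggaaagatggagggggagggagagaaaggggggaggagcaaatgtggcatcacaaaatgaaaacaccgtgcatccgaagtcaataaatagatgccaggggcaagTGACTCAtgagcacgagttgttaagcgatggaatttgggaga
Lgals3: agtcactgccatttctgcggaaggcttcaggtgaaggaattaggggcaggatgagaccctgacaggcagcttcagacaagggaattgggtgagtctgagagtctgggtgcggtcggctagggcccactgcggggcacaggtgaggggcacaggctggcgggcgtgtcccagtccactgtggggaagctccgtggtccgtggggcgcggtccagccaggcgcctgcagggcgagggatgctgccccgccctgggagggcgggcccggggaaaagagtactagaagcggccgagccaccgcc
Cd9: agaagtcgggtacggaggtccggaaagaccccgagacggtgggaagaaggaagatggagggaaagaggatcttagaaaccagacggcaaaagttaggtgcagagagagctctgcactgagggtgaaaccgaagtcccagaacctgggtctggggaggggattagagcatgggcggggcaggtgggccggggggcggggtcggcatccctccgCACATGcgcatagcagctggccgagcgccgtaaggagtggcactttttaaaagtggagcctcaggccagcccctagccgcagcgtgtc

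RefSeq windows were at hand for 8 of the 10 genes, 11 windows in all, since *Spp1* and *Mitf* have several starts. Both strands were searched for 3 sets of letters. CACGTG, the core of the CLEAR element bound by MiT/TFE factors, was in 0 of the 11 windows, where 7.15% of 32851 mouse promoter windows of this length held it. CATGTG or its reverse complement CACATG, the core of the M-box of MITF, was in 1 window, that of *Cd9*, 38 bases before the start, against 14.2% of all windows. TGAGTCA or its reverse complement TGACTCA, the AP-1 site, was in 1 window, that of *Gpnmb*, with its first letter at base 9 when the start base is counted as 1, against 5.2% of all windows. The start base of the *Gpnmb* window lies 28 bases before the start of the gene in GENCODE M21. Those of the *Lgals3* and *Cd63* windows lie 6109 and 8356 bases inside the gene, so these windows are not at the GENCODE gene start. These matches are descriptions of the letters, and their absence from a window says only that the letters are not in it.

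Between 10271590 and 12361745 fragments were counted in a library. Wild-type replicate 2 stood apart from the other libraries. Compared with the mean of wild-type replicates 1 and 3, the summed FPKM (fragments scaled to transcript length and library size) of 10 fibroblast and mesangial markers was 0.262 times as high, that of 8 endothelial markers 0.396 times and that of 15 macrophage markers 0.622 times, while that of 10 proximal tubule markers was 3.92 times as high. Values without this library are given beside many of the results that it moved. A result printed without such a value may also depend on it. The mutated gene, *Ptpn6*, ranged from 11.85 to 14.7 FPKM among *Ptpn6*+/mev mice and from 10.9 to 17.5 FPKM among wild-type mice. These ranges overlapped, and the log2 fold change of *Ptpn6* was -0.19 (standard error 0.17, FDR = 0.715 from edgeR's quasi-likelihood test). These values are RNA of the whole gene and do not measure the SHP-1 protein. The study checked the mutation by Sanger sequencing and the protein by western blot.

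*Gpnmb* (chr6:49036546-49070929, plus strand; positions of genes are those of GENCODE M21 on GRCm38) had FPKM of 7.91, 6.15 and 7.53 in *Ptpn6*+/mev mice 1, 2 and 3 and 1.22, 0.85 and 1.86 in wild-type mice 1, 2 and 3, the order used throughout. Every *Ptpn6*+/mev mouse lay above every wild-type mouse, and the groups did not overlap. The estimated counts behind these values were 281, 223 and 301 in *Ptpn6*+/mev mice and 44, 31 and 79 in wild-type mice. Mean FPKM was 7.20 ± 0.93 (SD, n = 3) against 1.31 ± 0.51 (SD, n = 3), a ratio of 5.49. On the log2 scale of edgeR's fit the difference was 2.46, with a standard error of 0.26. It was the fourth highest of the 13036 log2 fold changes, a rank that follows from how the list was built. With wild-type replicate 2 the lowest and wild-type replicate 3 the highest of its group, *Gpnmb* spread 2.19-fold among wild-type mice and 1.29-fold among *Ptpn6*+/mev mice. Leaving out 1 library at a time gave log2 fold changes between 2.25 and 2.80, the highest without wild-type replicate 3.

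**Figure D1:**
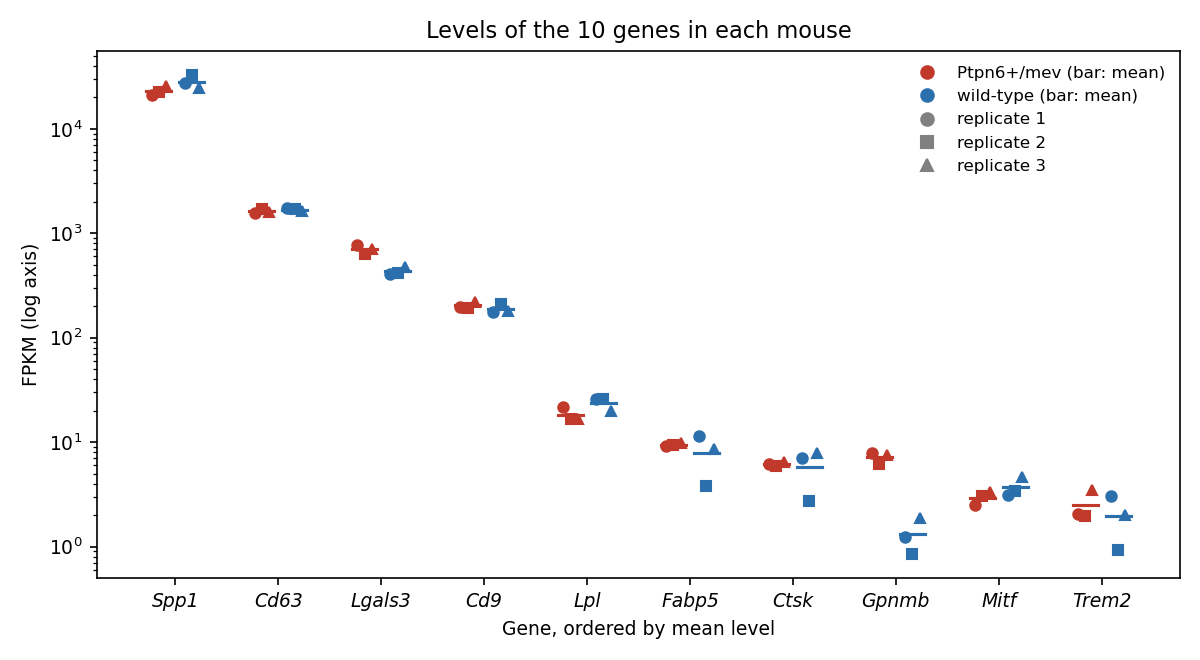
FPKM of the 10 genes in each mouse, on a log10 axis, with *Ptpn6*+/mev mice in red, wild-type mice in blue, replicate numbers as marker shapes and horizontal bars at the means of 3 mice. *Gpnmb* and *Lgals3* are the genes whose groups do not overlap, and *Spp1* lies above all others, at 20881 to 32919.8 FPKM.

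The other 9 genes were compared between the genotypes with edgeR's quasi-likelihood test, and the p-values were adjusted over all 13036 tested genes (FDR). At an FDR under 0.05 the test called 0 of the 9, and 0.138% of all tested genes. At an unadjusted p under 0.05 it marked 3 of the 9, *Lgals3* higher and *Spp1* and *Lpl* lower in *Ptpn6*+/mev mice, where 12.2% of all tested genes were marked. FPKM did not overlap between the groups for 1 of the 9, *Lgals3*, against 20.4% of all tested genes. The first share lay above the background and the second below it, each read on 9 genes. DESeq2's Wald test and edgeR's exact test, which called 2.97% and 2.99% of all tested genes, each called 1 of the 9, again *Lgals3*.

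*Trem2* (chr17:48346401-48354147) encodes the lipid-sensing receptor of macrophages. Its FPKM was 2.06, 1.95 and 3.50 in *Ptpn6*+/mev mice and 3.02, 0.92 and 2.00 in wild-type mice. The groups overlapped widely, with the highest and next highest values in different genotypes. The log2 fold change was 0.29 (95% confidence interval -0.71 to 1.29, FDR = 0.859 from edgeR) and rested on 11 to 41 counts per library. Without wild-type replicate 2, the lowest of the 6, it was -0.01.

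*Lgals3* (chr14:47367751-47386160) encodes galectin-3, a galactoside-binding lectin secreted by macrophages and by injured epithelium. The *Ptpn6*+/mev mice had 767, 634 and 703 FPKM and the wild-type mice 403, 414 and 475 FPKM. The lowest *Ptpn6*+/mev mouse lay above the highest wild-type mouse. Mean FPKM was 701 ± 66.3 (SD, n = 3) against 431 ± 38.8 (SD, n = 3), a ratio of 1.63. The log2 fold change of 0.64 (standard error 0.10, 95% confidence interval 0.42 to 0.87) had an unadjusted p of 1.88e-04 and an FDR of 0.0685 from edgeR's quasi-likelihood test, which missed the threshold. The call turned with the test and with 1 library: the adjusted p was 2.35e-05 from DESeq2, 3.23e-04 from edgeR's exact test and 0.0230 from edgeR's quasi-likelihood test without wild-type replicate 2, and 0.0448 from the same test without a filter on low counts. The last 2 fits called 1.77% and 0.315% of all genes they tested. Over all 15 alternatives the adjusted p of *Lgals3* ranged from 2.35e-05 to 0.373. The size of the difference moved little, between 0.58 and 0.71. Among the other 9 genes of the list, *Lgals3* was the one whose groups did not overlap, with a smaller fold than *Gpnmb*. Within the genotypes it varied by 9.46% in *Ptpn6*+/mev and 9.01% in wild-type mice (coefficient of variation).

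*Spp1* (chr5:104435118-104441050) encodes osteopontin, a secreted phosphoprotein that binds integrins and CD44. It was the most abundant of all tested genes by mean FPKM and took between 2.95% and 4.66% of a library's counts. Its FPKM was 20881, 22409.8 and 25507 in *Ptpn6*+/mev mice and 27631, 32919.8 and 24406 in wild-type mice. The mean was lower in *Ptpn6*+/mev mice, but *Ptpn6*+/mev replicate 3 lay above wild-type replicate 3. The log2 fold change was -0.38 (95% confidence interval -0.71 to -0.05, unadjusted p = 0.0289, FDR = 0.331 from edgeR), opposite in sign to that of *Gpnmb*. Without wild-type replicate 2, the mouse with the most *Spp1*, it was -0.21 (standard error 0.095).

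*Cd9* (chr6:125460266-125494791, minus strand) and *Cd63* (chr10:128900989-128912822) encode tetraspanins, the first of the cell surface and the second of late endosomes and lysosomes. *Cd9* had FPKM of 198, 193 and 221 in *Ptpn6*+/mev mice and 176, 212 and 178 in wild-type mice. The groups overlapped, and the log2 fold change was 0.03 (95% confidence interval -0.24 to 0.31, FDR = 0.946 from edgeR). Without wild-type replicate 2 the change of *Cd9* was 0.17 (standard error 0.088). *Cd63* had FPKM of 1549, 1715 and 1602 in *Ptpn6*+/mev mice and 1738, 1689 and 1615 in wild-type mice. It was the steadiest of the 10 genes in wild-type mice, with a coefficient of variation of 3.67%, and its log2 fold change was -0.12 (95% confidence interval -0.32 to 0.07, FDR = 0.628 from edgeR). This change was -0.08 (standard error 0.079) without wild-type replicate 2.

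*Fabp5* (chr3:10012548-10016607) encodes a carrier of fatty acids inside cells, and *Lpl* (chr8:68880491-68907448) encodes lipoprotein lipase, which frees fatty acids from triglyceride-rich lipoproteins. *Fabp5* had FPKM of 9.24, 9.36 and 9.76 in *Ptpn6*+/mev mice and 11.5, 3.77 and 8.50 in wild-type mice. The *Ptpn6*+/mev mice were alike, with a coefficient of variation of 2.88% where counting alone would give 10.1%, while wild-type replicate 2 was far below the other 5. The log2 fold change of *Fabp5* was 0.20 (95% confidence interval -0.57 to 0.97, FDR = 0.879 from edgeR) and -0.11 without wild-type replicate 2. *Lpl* had FPKM of 21.55, 16.7 and 16.6 in *Ptpn6*+/mev mice and 26.1, 25.7 and 19.7 in wild-type mice. *Ptpn6*+/mev replicate 1 lay above wild-type replicate 3, so the groups overlapped, and the log2 fold change of -0.46 (95% confidence interval -0.83 to -0.08, unadjusted p = 0.0221, FDR = 0.306 from edgeR) did not pass.

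*Mitf* (chr6:97807052-98021349) encodes the MiT/TFE factor for which *Gpnmb* is a known target, and *Ctsk* (chr3:95499256-95509362) encodes cathepsin K, a collagen-degrading lysosomal protease and another target. *Mitf* had FPKM of 2.48, 3.04 and 3.30 in *Ptpn6*+/mev mice and 3.08, 3.43 and 4.62 in wild-type mice. Its mean was the lower one in *Ptpn6*+/mev mice, with overlapping groups and a log2 fold change of -0.26 (95% confidence interval -0.68 to 0.17, FDR = 0.647 from edgeR). *Ctsk* had FPKM of 6.10, 5.92 and 6.49 in *Ptpn6*+/mev mice and 6.97, 2.70 and 7.79 in wild-type mice. All 3 *Ptpn6*+/mev mice lay inside the range of the wild-type mice, which wild-type replicate 2 set at its lower end. The log2 fold change of *Ctsk* was 0.03 (95% confidence interval -0.73 to 0.79, FDR = 0.986 from edgeR) and -0.29 without wild-type replicate 2.

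**Figure D2:**
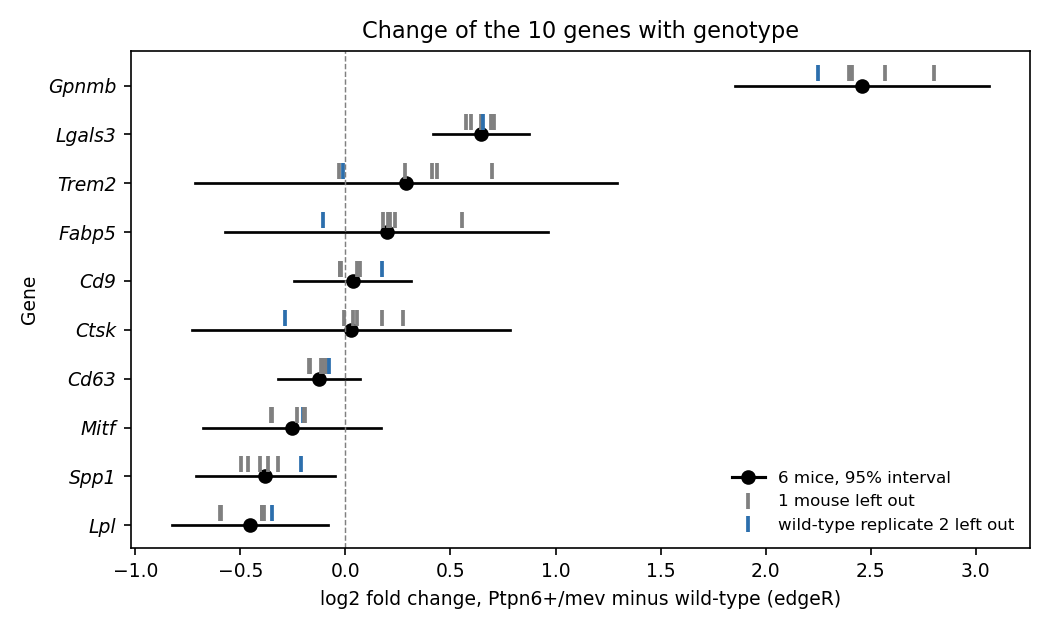
Log2 fold change (*Ptpn6*+/mev minus wild-type) of the 10 genes from edgeR's fit, with 95% confidence intervals as black bars, ticks for the fits with 1 mouse left out (blue without wild-type replicate 2) and a dashed line at no difference. *Gpnmb* is drawn as a description, since its difference chose the list. Among the other 9, the interval of *Lgals3*, 0.42 to 0.87, lies above 0, those of *Spp1* and *Lpl* lie below 0, and the remaining 6 include 0.

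By mean FPKM the 10 genes kept nearly the same order of levels in both genotypes. In *Ptpn6*+/mev mice it ran, from high to low, *Spp1*, *Cd63*, *Lgals3*, *Cd9*, *Lpl*, *Fabp5*, *Gpnmb*, *Ctsk*, *Mitf* and *Trem2*. In wild-type mice the first 6 places were the same, and *Ctsk*, *Mitf*, *Trem2* and *Gpnmb* followed, so *Gpnmb* was seventh in one genotype and last in the other. Among neighbours in this order, FPKM ranges overlapped for *Gpnmb* and *Ctsk* and for *Mitf* and *Trem2* in *Ptpn6*+/mev mice, and for *Fabp5* and *Ctsk*, *Ctsk* and *Mitf*, and *Trem2* and *Gpnmb* in wild-type mice.

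Whether the other genes followed *Gpnmb* was asked within the genotypes. *Gpnmb* divides the 6 libraries into separate clusters of 3, so a pooled relation could not be tested. Instead, edgeR's quasi-likelihood test was applied to the slope of each gene on the log2 CPM (counts scaled to library size) of *Gpnmb*, centred within each group, in a model with the genotype and 3 residual degrees of freedom. At an FDR under 0.05 it called 0 of the 9 genes and 0 of 13035 genes, a share of 0%. At an unadjusted p under 0.05 it marked 2 of the 9, where 12.3% of all genes were marked, 4.86% with a positive and 7.4% with a negative slope. *Ctsk* had a slope of 1.06 (standard error 0.40, unadjusted p = 0.0333, FDR = 0.391 from edgeR) and *Spp1* one of -0.43 (standard error 0.17, unadjusted p = 0.0416, FDR = 0.398 from edgeR), in opposite directions. The slopes of the other 7 ran from -0.39 for *Lpl* to 0.78 for *Trem2*. The slope of *Lgals3* was 0.15 (standard error 0.14, FDR = 0.640 from edgeR), and 0.42 (standard error 0.17, FDR = 0.974) without wild-type replicate 2.

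These slopes rest largely on the wild-type mice, where *Gpnmb* ranged from 0.48 below to 0.54 above its group mean on the log2 CPM scale, against 0.23 below to 0.13 above in *Ptpn6*+/mev mice. Leaving out 1 library at a time, the slope of *Ctsk* ranged from 0.25 to 1.60. Without wild-type replicate 2, the slopes of *Trem2*, *Fabp5* and *Cd9* changed sign, to -0.20, -0.48 and 0.12, and those of *Ctsk* and *Spp1* shrank to 0.25 and -0.15. In that fit *Lgals3* was the single gene of the 9 at an unadjusted p under 0.05, where 4.33% of all genes were. Without wild-type replicate 3 the slope of *Lpl* was 0.12 and that of *Mitf* -0.26, and 0 of the 9 reached that threshold, against 3.34% of all genes. Over the 6 omissions the number marked ranged from 0 to 3, while the share of all genes marked ranged from 3.34% to 16%. The 3 (*Ctsk*, *Lpl* and *Spp1*) were marked without *Ptpn6*+/mev replicate 2, the fit with the share of 16%. In wild-type replicate 2, relative to the mean FPKM of wild-type replicates 1 and 3, *Gpnmb* was at 0.552, *Trem2* at 0.367, *Fabp5* at 0.377 and *Ctsk* at 0.366 times, whereas *Lgals3* was at 0.943, *Mitf* at 0.891, *Cd63* at 1.01, *Lpl* at 1.12, *Cd9* at 1.20 and *Spp1* at 1.27 times. The macrophage, fibroblast and endothelial marker sums were low in the same library, and their part in the shared low values was not tested.

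The order of the mice was compared as a description. By FPKM, *Gpnmb* was highest in wild-type replicate 3 and lowest in wild-type replicate 2, and 1 of the 9 other genes, *Ctsk*, had the wild-type mice in the same order, against 31.8% of all genes. Of the 9, 3 were lowest in wild-type replicate 2 (*Trem2*, *Fabp5* and *Ctsk*), against 54.1% of all genes. By log2 CPM these were the same genes, against 24.3% and 41.9% of all genes. The opposite order of the wild-type mice was held by 1 of the 9 by FPKM (*Spp1*, against 15.8%). By log2 CPM it was held by 4 (*Spp1*, *Cd9*, *Lpl* and *Cd63*, against 24.1%). In *Ptpn6*+/mev mice *Gpnmb* was lowest in replicate 2 on either scale, as were 4 of the 9, against 32.7% of all genes by FPKM and 32.3% by log2 CPM. The scales ordered replicates 1 and 3 differently: replicate 1 was the higher by FPKM, giving 1 gene in the same order (*Lgals3*, against 18.9%), and replicate 3 by log2 CPM, giving 3 (*Trem2*, *Cd9* and *Ctsk*, against 12.7%). The opposite order in *Ptpn6*+/mev mice was held by 1 of the 9 by FPKM (*Cd63*, against 20.9%) and by 0 by log2 CPM (against 15.4%).

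**Figure D3:**
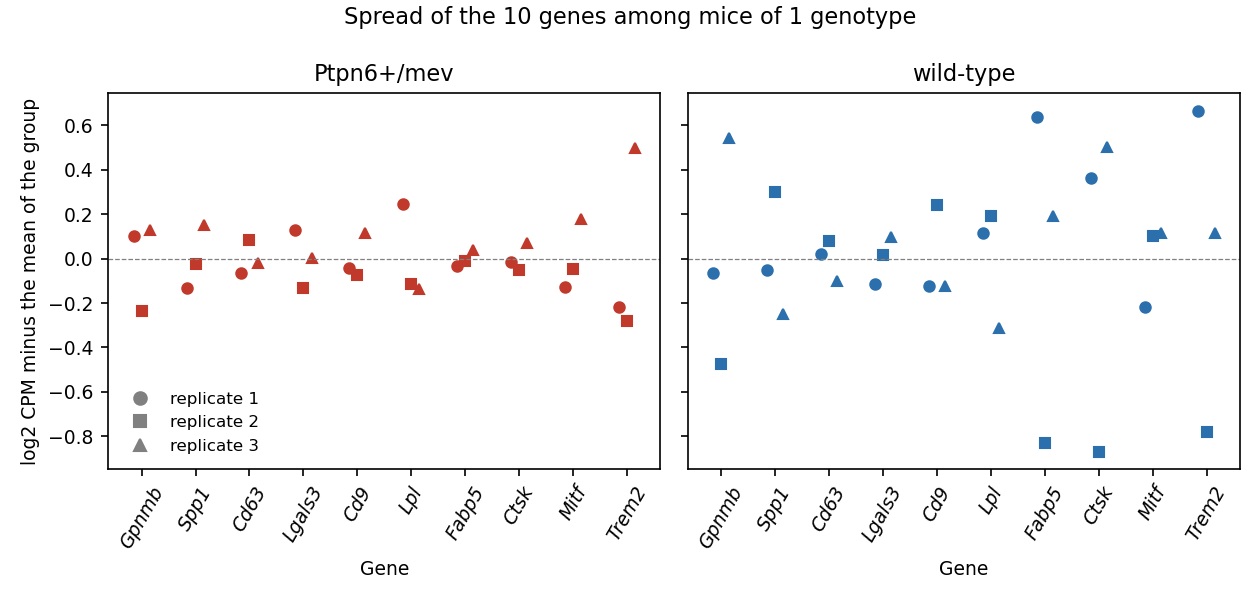
Log2 CPM of each of the 10 genes in each mouse minus the mean of its own genotype, with *Ptpn6*+/mev mice on the left, wild-type mice on the right and replicate numbers as marker shapes. In wild-type replicate 2 (squares) *Gpnmb*, *Fabp5*, *Ctsk* and *Trem2* sit far below the group mean, *Gpnmb* by 0.48, while *Spp1*, *Cd9* and *Lpl* sit above it.

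The level of *Gpnmb* was set against general macrophage markers. Of 15 macrophage genes tested, among them *Adgre1* and *Csf1r*, edgeR called 0 at an FDR under 0.05, against 0.138% of all tested genes. It marked 0 at an unadjusted p under 0.05, against 12.2%. DESeq2 called 0, against 2.97%, and the groups did not overlap for 0 of the 15, against 20.4%. The median log2 fold change was 0.18, with 12 of 15 above 0, against a median of -0.0024 and 49.5% above 0 over all tested genes. Without wild-type replicate 2 the median of the 15 was -0.08. *Lyz2* (lysozyme), the most abundant, had a log2 fold change of 0.42 (FDR = 0.717 from edgeR), and *Cd14*, the lipopolysaccharide co-receptor, one of -0.37 (FDR = 0.445 from edgeR). The summed FPKM of the 15 genes was 215, 334 and 339 in *Ptpn6*+/mev mice and 312, 179.5 and 266 in wild-type mice. These sums overlapped, and *Ptpn6*+/mev replicate 1, which had the highest FPKM of *Gpnmb*, had the lowest of its genotype.

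Per 1000 FPKM of these macrophage markers, *Gpnmb* came to 36.7, 18.4 and 22.2 FPKM in *Ptpn6*+/mev mice and 3.91, 4.74 and 7.00 in wild-type mice, means of 25.8 ± 9.68 and 5.22 ± 1.60 (SD, n = 3 each). The lowest *Ptpn6*+/mev mouse lay above the highest wild-type mouse on this scale. The ratio holds the *Gpnmb* values that chose the list, so it is a description and tests nothing. In bulk tissue, more cells of a type and more RNA per cell cannot be told apart, and the cells that hold the *Gpnmb* RNA were not identified. The FPKM of *Spp1*, *Cd63* and *Lgals3* each exceeded the summed FPKM of all 15 macrophage markers in every mouse, while those of *Gpnmb*, *Trem2*, *Ctsk*, *Mitf*, *Fabp5* and *Lpl* were below it.

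**Figure D4:**
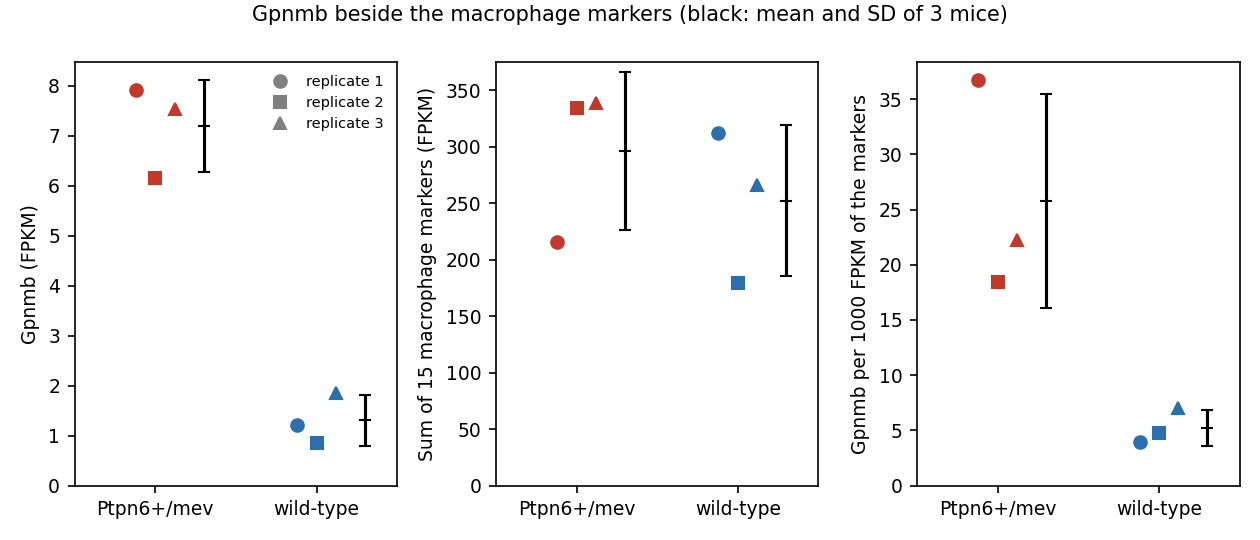
FPKM of *Gpnmb*, summed FPKM of 15 macrophage markers, and *Gpnmb* per 1000 FPKM of these markers in each mouse, with *Ptpn6*+/mev mice in red, wild-type mice in blue and the mean and SD of 3 mice in black. The groups are apart for *Gpnmb* (6.15 to 7.91 against 0.85 to 1.86), overlap for the marker sum (215 to 339 against 179.5 to 312) and are apart for the ratio (18.4 to 36.7 against 3.91 to 7.00). The ratio holds the *Gpnmb* values that chose the list and is drawn as a description.

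Other cells in which these genes are known to be active were checked by their markers. Melanocytes, where *Gpnmb* and *Mitf* are abundant, left almost no marker RNA: of 9 markers 0 passed the count filter, *Tyr*, *Tyrp1*, *Dct* and *Oca2* were at 0 in all 6 libraries, and the summed FPKM lay between 0.27 and 0.64. Osteoclast markers, which fit *Ctsk* and *Gpnmb*, summed to 47.5 to 52.3 FPKM in *Ptpn6*+/mev mice and 42.1 to 54.0 in wild-type mice. *Dcstamp*, which osteoclasts need for fusion, was at 0. Of 6 tested genes 0 were at an FDR or an unadjusted p under 0.05 (edgeR), against 0.138% and 12.2% of all tested genes. DESeq2 called 0 of them, against 2.97%. Without wild-type replicate 2, 1 of the 6 was higher at an unadjusted p under 0.05, against 9.17% of all tested genes. Adipocyte markers, relevant to *Lpl*, summed to 251, 86.1 and 106 FPKM in *Ptpn6*+/mev mice and 264, 58.4 and 219 in wild-type mice, with overlapping groups. Most of each sum was *Fabp4*, at 176, 84.2 and 105 FPKM in *Ptpn6*+/mev mice and 166, 46.0 and 137 in wild-type mice. The log2 fold change of *Fabp4* was 0.01, where the median of the list was -1.39. Of the 7 tested genes 0 were called at an adjusted or an unadjusted p under 0.05 by edgeR, or by DESeq2, against 0.138%, 12.2% and 2.97% of all tested genes. This rested on *Ptpn6*+/mev replicate 1: without it, 6 of the 7 were lower at an unadjusted p under 0.05, against 4.73% of all tested genes, and 1 was called at an FDR under 0.05, against 0.0307%. By FPKM, *Lpl* was highest in the mouse with the most adipocyte marker RNA in each genotype, but by log2 CPM the highest wild-type mouse was replicate 2, with the least. The part of these cells in its level was not tested.

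Markers of injured tubules had a summed FPKM of 6310 to 7690 in *Ptpn6*+/mev mice and 5720 to 6182 in wild-type mice. The gap was narrow, 6182 against 6310. FPKM also lay higher without overlap in *Ptpn6*+/mev mice for 14.0% of all tested genes and lower for 6.38%, and the part of this shift in the sum was not tested. With TMM the median log2 fold change of the 10 tested genes was 0.28. Of these, 5 were higher in *Ptpn6*+/mev mice at an unadjusted p under 0.05 (*Havcr1*, *Krt8*, *Krt18*, *Vcam1* and *Cdkn1a*), against 5.53% of all tested genes. None of the 10 passed an FDR of 0.05 with edgeR's quasi-likelihood test, and DESeq2 called 2, against 0.138% and 2.97% of all tested genes. Leaving out wild-type replicate 2, 6 of the 10 were higher at an unadjusted p under 0.05, against 9.17% of all tested genes, and edgeR called 2, against 1.77%. Of 10 proximal tubule genes 4 were lower at an unadjusted p under 0.05, against 6.71% of all tested genes. At an FDR under 0.05 edgeR called 0, against 0.138%, and DESeq2 called 2, against 2.97%. EdgeR called 3 of the proximal tubule genes without wild-type replicate 2, against 1.77% of all tested genes. It called 1 without wild-type replicate 3 and 1 without *Ptpn6*+/mev replicate 2, against 0.499% and 0.0921%. Galectin-3 and osteopontin are made by injured tubules. *Lgals3* was the higher and *Spp1* the lower one in *Ptpn6*+/mev mice. Neither passed an FDR of 0.05 (0.0685 and 0.331 from edgeR), and the groups overlapped for *Spp1*. The part of the tubular markers in either difference was not tested. Of the remaining marker lists, 0 of 6 neutrophil, 0 of 2 dendritic cell, 0 of 10 fibroblast and mesangial and 0 of 8 endothelial genes reached an unadjusted p under 0.05, against 12.2% of all tested genes. Of 8 T and NK cell genes 0 passed the count filter. Without wild-type replicate 2, 6 of the 10 fibroblast and mesangial and 2 of the 8 endothelial genes were lower at an unadjusted p under 0.05, against 8.13% of all tested genes. In that fit 2 of the fibroblast and mesangial genes were called at an FDR under 0.05, against 1.77%. Of 5 tested loop of Henle and distal tubule genes 1 was lower, and of 8 collecting duct genes 1 was higher and 1 lower, against 5.53% higher and 6.71% lower of all tested genes. The median log2 fold changes of these lists turned, when wild-type replicate 2 was left out, from -0.13 to 0.22 and from -0.17 to 0.25. In that fit 2 genes were higher and 1 lower in each, against 9.17% and 8.13%. In these remaining lists edgeR and DESeq2 each called 0 genes at an adjusted p under 0.05 in the 6 libraries, against 0.138% and 2.97% of all tested genes.

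Genes around the 10 were then read in 7 lists by role, and edgeR's quasi-likelihood test called 0 of their genes at an FDR under 0.05, against the 0.138% given above. Of 29 tested genes of lipid-associated macrophages outside the 10, 3 were higher and 3 lower at an unadjusted p under 0.05, against 5.53% and 6.71% of all tested genes, and the median log2 fold change was -0.0049. The genes at the extremes, named after their values were seen, pointed opposite ways. *Cd36*, the fatty acid translocase, had FPKM of 52.5, 51.6 and 55.1 in *Ptpn6*+/mev mice and 169, 264 and 103 in wild-type mice. *Plin2*, a coat protein of lipid droplets, had 492, 495 and 602 against 866, 1506 and 738. Both were lower in every *Ptpn6*+/mev mouse, with log2 fold changes of -1.98 (FDR = 0.114 from edgeR) and -1.05 (FDR = 0.177 from edgeR). DESeq2 and the exact test called both, against 2.97% and 2.99% of all tested genes. EdgeR's quasi-likelihood test called 3 genes of this list without wild-type replicate 2, these and *Lgals1*, against 1.77% of all tested genes. Without wild-type replicate 3 it called *Cd36*, against 0.499%. *Lgals1*, the gene for galectin-1 and a paralog of *Lgals3*, had FPKM of 826, 917 and 889 against 613, 354 and 684, all 3 *Ptpn6*+/mev mice being higher, with a log2 fold change of 0.62 (FDR = 0.248 from edgeR). Both *Cd36* and *Plin2* are also expressed in proximal tubule cells.

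The lysosome was examined through 21 known target genes of MiT/TFE factors. FPKM was higher in all *Ptpn6*+/mev mice than in all wild-type mice for 10 of the 21, against 14.0% of all tested genes, and lower for 0, against 6.38%. On the scale of edgeR's fit these differences were small: the median log2 fold change was 0.08, 3 genes were higher (*Hexa*, *Gla* and *Atp6v0d1*) and 1 lower (*Glb1*) at an unadjusted p under 0.05, against 5.53% and 6.71% of all tested genes. With wild-type replicate 2 left out, 4 were higher and 0 lower, where 9.17% and 8.13% of all genes were. The most abundant, *Ctsd* (cathepsin D), was among the 10, with FPKM of 1332, 1252 and 1324 against 1242, 1250.4 and 1229, but had a log2 fold change of -0.00068 once library composition was scaled by TMM. *Psap*, the precursor of the saposins, had 0.12 (FDR = 0.690 from edgeR). *Hexa*, a subunit of beta-hexosaminidase, had the lowest FDR of the list, 0.176 from edgeR, with a log2 fold change of 0.41.

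Of the 11 MiT/TFE factors and regulators, *Mitf* included, 2 were higher at an unadjusted p under 0.05, *Rragc* (log2 fold change 0.28) and *Mcoln1* (0.26), and 0 were lower, against 5.53% and 6.71% of all tested genes. *Tfeb*, *Tfe3* and *Tfec*, the factors related to *Mitf*, had log2 fold changes of -0.16, 0.03 and 0.21, and their groups overlapped in FPKM. Of 11 TREM2 signalling partners 1 was higher, *Adam17*, the protease that can shed TREM2, at 0.25, and 0 were lower, against the same shares. The median of this list, 0.10, was -0.05 without wild-type replicate 2, with 1 higher and 2 lower, against 9.17% and 8.13% of all tested genes. *Tyrobp*, the adaptor through which TREM2 signals, had FPKM of 25.8, 41.9 and 46.8 against 46.9, 16.5 and 38.5, and the groups overlapped. *Apoe*, a lipoprotein ligand of TREM2, had a log2 fold change of -0.29 (FDR = 0.426 from edgeR).

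Of 11 receptors and processing genes of GPNMB and osteopontin 1 was higher at an unadjusted p under 0.05, the integrin subunit *Itgb3* (log2 fold change 0.56), and 1 lower, the heparan sulfate proteoglycan *Sdc4* (-0.35), against 5.53% and 6.71% of all tested genes. The fit without wild-type replicate 2 gave 2 higher and 3 lower, against 9.17% and 8.13%. *Cd44*, a receptor of osteopontin, had a log2 fold change of 0.67 (FDR = 0.418 from edgeR) with overlapping groups. Of 13 lipoprotein lipase partners, 1 had a log2 fold change above 0, where 49.5% of all tested genes did, and the median was -0.29. At an unadjusted p under 0.05, 0 were higher and 1, *Lmf1*, a maturation factor of the lipase, was lower (-0.28), against 5.53% and 6.71% of all tested genes. Without wild-type replicate 2, 2 were lower, against 8.13%. *Angptl4*, an inhibitor of the lipase, and *Pnpla2*, the triglyceride lipase of lipid droplets, had -0.31 and -0.46, with overlapping groups. Of 26 tested paralogs of the 10 genes, 3 were higher at an unadjusted p under 0.05 (*Lgals1*, *Fabp7* and *Ctsl*) and 0 lower, against 5.53% and 6.71% of all tested genes. Of these paralogs 5 were higher without wild-type replicate 2, against 9.17% of all tested genes, and *Lgals1* was called at an FDR under 0.05, against 1.77%. Without wild-type replicate 3, 3 were higher and 3 lower, against 5.94% and 8.2% of all tested genes. *Pmel*, the close paralog of *Gpnmb*, was below the count filter, with mean FPKM of 0.287 and 0.247.

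**Figure D5:**
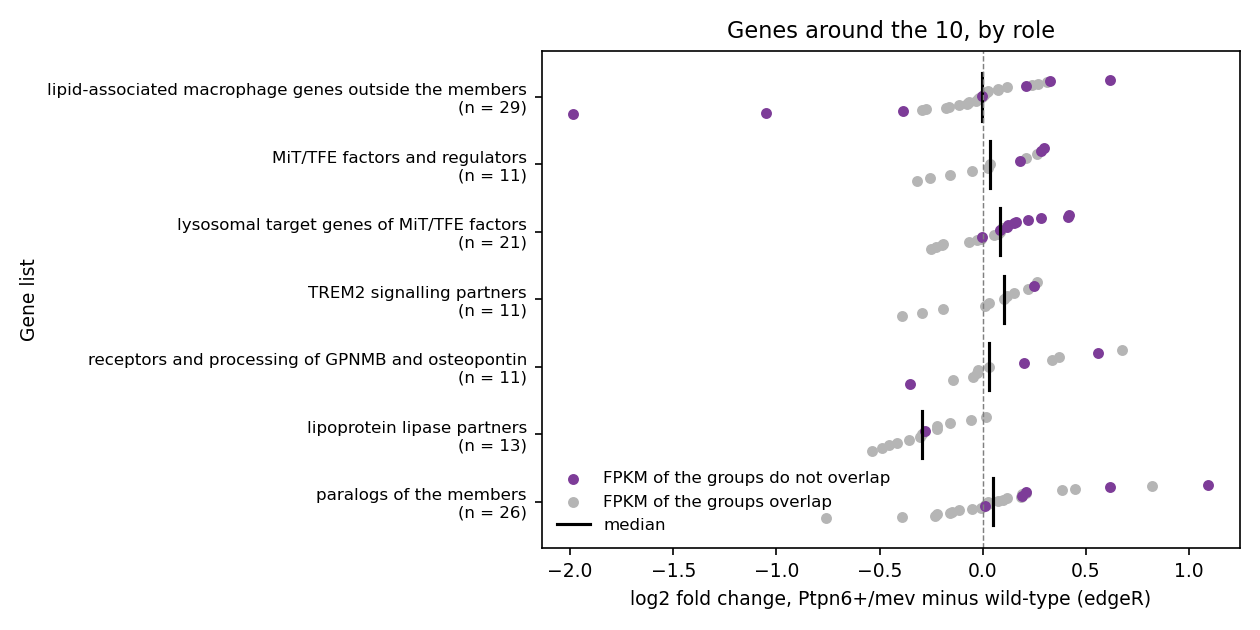
Log2 fold change (*Ptpn6*+/mev minus wild-type, edgeR) of each tested gene of the 7 lists by role, with genes whose FPKM did not overlap between the groups in purple, the others in grey and the median of each list as a black bar. The medians lie between -0.29 (lipoprotein lipase partners) and 0.10 (TREM2 signalling partners), and the points farthest left are *Cd36* at -1.98 and *Plin2* at -1.05.

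The genes nearest to *Gpnmb* in profile were sought among 12000 tested genes with a mean FPKM of at least 1 in the higher group, by the root mean square difference of log2 CPM centred on the mean of the 6 libraries. The nearest 5 were *Mmp10* (0.40), *Ckap2l* (0.44), *Prc1* (0.44), *Serpinb9b* (0.44) and *Top2a* (0.48). *Mmp10* encodes a matrix metalloproteinase, *Serpinb9b* a serine protease inhibitor, and *Prc1* and *Top2a* act in cytokinesis and in chromosome segregation. *Mmp10* had FPKM of 2.20, 1.84 and 1.88 in *Ptpn6*+/mev mice and 0.48, 0.37 and 0.56 in wild-type mice. The 9 other genes were farther from *Gpnmb*, from 0.96 for *Lgals3* to 1.54 for *Lpl*. The measure uses the same genotype contrast that chose *Gpnmb*, so it describes likeness and tests nothing. On log2(FPKM + 1) values, 0 of the 5 were among the nearest.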

How the data were processed

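Poly-A RNA of 6 kidneys was sequenced, 1 library per mouse. Per the study's methods, alignment was to GRCm38.p5 by TopHat, followed by Cufflinks, and the submitters' processing notes also name Bowtie2 and RSEM. The authors deposited 1 table with 2 values, the estimated count and the FPKM (fragments scaled to transcript length and library size), per gene and library. Which tool made the counts is not given in the sources used here. Fractional counts (1744 genes) can arise where similar genes share reads, and the deposited estimated counts were rounded.

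Counts were fitted with edgeR 4.0.16 in R 4.3.3 (TMM, filterByExpr, quasi-likelihood test), with Benjamini-Hochberg adjustment over all 13036 tested genes, or 13035 for slopes, at a threshold of 0.05. Log2 CPM used a prior count of 2. Total counts of 10271590 to 12361745 limit precision for genes near 0. Replicates differed by more than sampling noise (chi-square per degree of freedom 6.49 to 45.4). The fits were also run on simulated counts with planted changes. These held no library like wild-type replicate 2, and no result given here rests on them.

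The 10 genes and all gene lists were chosen with earlier results of these data known. Named genes were the 10, *Ptpn6*, the 2 most abundant tested genes and any gene past the threshold of each list, and the 5 profiles nearest to *Gpnmb*. Others, such as *Cd36*, *Plin2*, *Cd44*, *Pmel* and the remaining genes at an unadjusted p under 0.05, were named after their values were seen. *Itgam*, a macrophage marker with several entries, was left out. Alternatives were DESeq2 1.42.0 (size factors and Wald test), upper quartile normalization, edgeR's exact test, limma 3.58.1 on log2(FPKM + 1) and log2(FPKM + 0.1), no count filter, a minimum of 10 counts in each library, a replicate block and each library left out. Figures were drawn with matplotlib 3.10.9.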

Additional observations from a re-analysis of the deposited data

How the results depend on the processing

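The number of the other 9 genes called between the genotypes was 0 of 9 with edgeR's quasi-likelihood test. It was also 0 under DESeq2's size factors, upper quartile normalization, limma on both FPKM scales, and at least 10 counts in every library, fits that called between 0.0614% and 0.146% of all genes they tested. The number was 1, *Lgals3*, under DESeq2's Wald test, edgeR's exact test and no filter on low counts (adjusted p = 0.0448). These called 2.97%, 2.99% and 0.315% of all genes they tested. With 1 library left out the number ranged from 0 to 1. The count in the role lists, 0, became 2 under DESeq2's Wald test and 2 under the exact test (*Cd36* and *Plin2* in both), against 2.97% and 2.99% of all tested genes. With 1 library left out it ranged from 0 to 3, being 3 without wild-type replicate 2 (*Cd36*, *Plin2* and *Lgals1*) and 1 without wild-type replicate 3 (*Cd36*). The same fit called 18 of 13036 genes with all libraries, 4, 12 and 1 without *Ptpn6*+/mev replicates 1, 2 and 3, and 9, 231 and 65 without wild-type replicates 1, 2 and 3. The genes nearest to *Gpnmb* were the same 5 with a prior count of 0.5, and 0 of the 5 were shared on log2(FPKM + 1). The cause of these shifts was not tested.

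With 1 library left out the sign of the log2 fold change turned for *Trem2* (-0.029 to 0.70), *Cd9* (-0.028 to 0.17), *Ctsk* (-0.29 to 0.28) and *Fabp5* (-0.11 to 0.56), and the sign of the slope on *Gpnmb* for *Trem2* (-0.20 to 2.63), *Cd9* (-0.33 to 0.12), *Fabp5* (-0.48 to 1.76), *Lpl* (-0.52 to 0.12) and *Mitf* (-0.26 to 0.49). The slope call stayed at 0 of 9 genes in all 9 alternatives of that fit. The log2 fold change of *Gpnmb* was 1.84 on log2(FPKM + 1).

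Replicate numbers are shared between the groups. Across genes, the deviations of same-numbered mice from their group means had correlations of -0.144, -0.184 and -0.130. Deviations from a mean of 3 mice depend on each other, so these values cannot decide whether the numbers pair the mice. The main fit used no pairing. The fit with the replicate block called 0 of the 9 genes and 1 of 13036 genes.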
